A study of Mus musculus with 12 samples.

Results

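The genes described here are 37 mouse genes of homologous recombination and of the DNA damage checkpoint. They were chosen by name from the pathway, with earlier results of these data known. They were followed in mouse embryonic fibroblasts during the first days of reprogramming. Of these, 33 had a probe set that the platform annotation gives to that gene alone, out of 22180 genes measured. Rad54b and Fanca had only probe sets shared with another gene, and Rbbp8 and Xrcc2 were not analysed here. None of the 33 had a mean level under the 25th percentile of all genes, which was 3.75 on the log2 scale, and no filter on low levels was applied.

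Homologous recombination repairs DNA breaks and collapsed replication forks by copying an intact sister chromatid. The ends are cut back to single strands, which are coated by the RPA complex, and BRCA proteins then prepare them to invade the sister. The kinases ATM and ATR detect breaks and bare single strands and signal through CHEK2 and CHEK1 to hold the cell cycle. The pathway acts in cells that are replicating or have replicated their DNA, and many of its genes are transcribed more in S and G2 phase.

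Total RNA came from fibroblasts that were wild type (WT) or null for Gdap1 (KO), a gene of the mitochondrial outer membrane linked to mitochondrial fission. Each genotype was sampled before reprogramming (day 0) and at day 4 of reprogramming with Oct4, Sox2, Klf4 and Myc, a set of 4 transcription factors abbreviated OSKM. All cells were grown in DMEM with fetal bovine serum. One treatment label, the same on every array, speaks of overnight transduction with OSKM or a mock and leaves unsaid whether the day 0 cells were transduced. Each of the 4 groups had 3 arrays, 12 in all, of 1-colour Affymetrix type. The strain, the design of the null allele and the age of the embryos are not given, nor is it said whether the arrays of a group came from separate embryos or cultures. The p-values therefore measure only the spread between these arrays, which may be technical, and with no batch named in the labels batch and group cannot be told apart.

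Levels are log2 values, so a difference of 1 is a doubling, and levels of different genes are not compared with each other. Medians of the arrays lay between 5.22 and 5.32. WT day 4 array 1 correlated least with its own group (mean r = 0.987) and had the lowest array weight, 0.314. Gdap1 read 3.30, 3.24 and 3.04 in WT at day 0, 2.82, 3.02 and 3.15 in WT at day 4, 3.10, 2.97 and 3.28 in KO at day 0, and 3.21, 2.98 and 3.28 in KO at day 4. These levels lay under the 25th percentile in every group and overlapped between genotypes, so the probe set checks nothing about the genotype labels. All 20 fibroblast markers had means above that percentile. The summed linear level of 12 macrophage markers was 1503.4 to 1586.4 in WT at day 0, 1553.9 to 2745.2 in WT at day 4, 536.9 to 569.9 in KO at day 0 and 607.9 to 627.6 in KO at day 4, and none of the 12 had a mean under the percentile. Of these markers 9 were lower in KO at day 0 and 9 at day 4, against 3.12% and 12.4% of all genes. Their part in the results was not tested. The summed linear level of 10 keratinocyte markers, 3 of them with a mean under the percentile, was 506.0 to 539.5, 551.2 to 656.9, 375.8 to 406.9 and 362.7 to 408.7 in the same order of groups. Of these 10, 2 were lower in KO at day 0 and 6 at day 4, against the same shares of all genes. Among those lower at day 4 were Krt14 at -1.27, Krt8 at -0.82 and Cdh1 at -0.79. The part of the keratinocyte markers was not tested either.

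At day 4, 17 repair and checkpoint genes were lower in KO than in WT fibroblasts. The break-associated histone H2ax, the checkpoint kinase Chek1, the single-strand binding subunit Rpa2, the MRN subunit Nbn and the exonuclease Exo1 showed the largest differences, from -0.67 to -0.84 on the log2 scale. Of the 33 genes, 17 (51.5%) passed the test as lower and 0 as higher at a Benjamini-Hochberg adjusted p under 0.05 in limma, against 12.4% lower and 8.34% higher over all genes. Because the genes were chosen with earlier results of these data known, these shares describe the set and do not test it. At an unadjusted p under 0.05 the counts were 22 lower and 1 higher, against 18.6% and 14.6% of all genes. The median difference was -0.27 over the 33 genes and 0.00 over all genes, and 29 of the 33 differences were negative. All 3 KO arrays lay under all 3 WT arrays for 19 of the 33, against 17.3% of all genes. In RNA of a whole culture, fewer cells of a type and less RNA per cell cannot be told apart. The count of 17 became 10 without array 2 of WT at day 4, 8 without array 3 of that group and 10 without array 2 of KO at day 4, and it was 6 when the day 4 groups were fitted alone.

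Between day 0 and day 4, 15 of the 33 genes fell in KO cells and 2 rose, against 16.9% lower and 13.8% higher over all genes. In WT cells 5 fell (15.2%) and 1 rose, against 11.7% lower and 11.1% higher, so the WT share of falls was near that of all genes. The median change was -0.29 in KO cells and -0.01 in WT cells, and over all genes it was -0.01 in both. The 5 genes that fell in WT cells, Eme1, Fancb, Mms22l, Mus81 and Tonsl, also fell in KO cells. The WT count was 3 without WT day 0 array 3 or without WT day 4 array 1. A further 10 passed as lower in KO cells and not in WT cells, namely Brip1, Chek1, Exo1, Fancc, Fanci, Nbn, Rad51ap1, Rad54l, Rpa1 and Rpa2. The difference between the changes was itself tested, and 2 of the 33 passed as lower, Chek1 and Rpa2, with 0 higher, against 1.81% lower and 2.15% higher over all genes. That count was 0 without array 1 or 2 of WT at day 0 or array 1 or 2 of KO at day 0, 1 without array 3 of either day 0 group, array 3 of WT at day 4 or array 1 or 3 of KO at day 4, and 0 with all probe sets tested. At an unadjusted p under 0.05 these counts were 4 lower and 0 higher, against 10.2% and 8.85% of all genes, and the median was -0.16 over the 33 genes and -0.01 over all genes. The KO change, the day 4 difference and the difference of changes use the same KO day 4 arrays, so they are not independent of each other.

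At day 0 H2ax alone passed as lower in KO, 1 of 33, and 0 passed as higher, against 3.12% lower and 2.48% higher over all genes. At an unadjusted p under 0.05 the limma counts were 9 lower and 0 higher, against 9.15% and 7.5% of all genes. The median difference was -0.12, beside -0.00 over all genes, and 29 of the 33 differences were again negative. Atm, Atr, Atrip, Brca2, Chek2, Fancd2, Mre11a, Palb2 and Rad50 passed in no comparison.

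**Figure D1:**
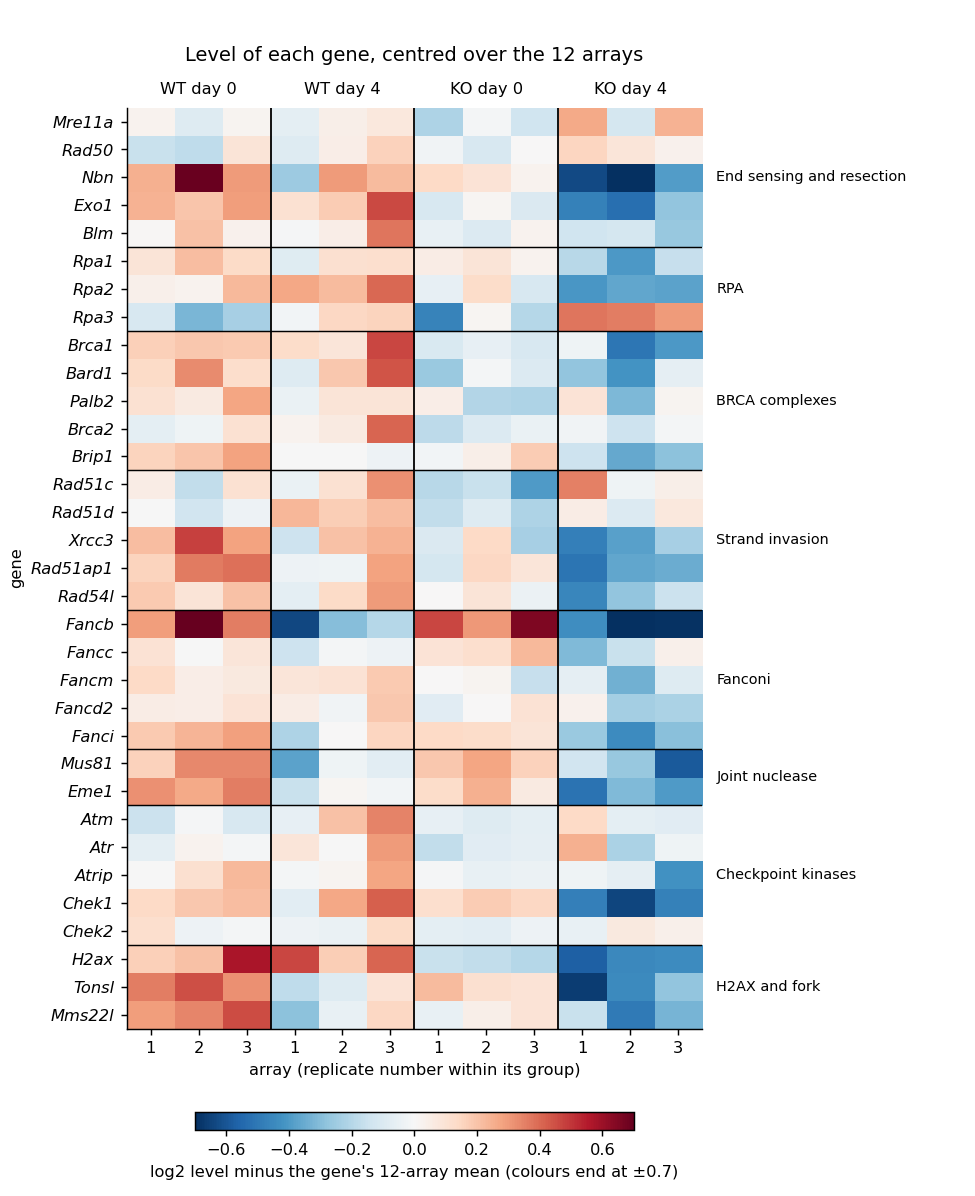
Level of each of the 33 measured genes (rows, grouped by role) on each of the 12 arrays (columns, by group), as log2 level minus the gene's mean over the 12 arrays. In 19 of the 33 rows all KO day 4 arrays lie under all WT day 4 arrays, while for Rpa3 they lie above.

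The promoter windows of 5 genes that were lower in KO cells at day 4 are shown. They were picked for the traits named next and not as typical windows. Chek1 and Rpa2 are the genes whose day 4 changes differed between genotypes, Brip1 and Xrcc3 hold 3 and 6 CCAAT boxes, and Bard1 holds the longer E2F form. Each window runs from 250 bases before to 50 after the first annotated start, on the gene's strand, from RefSeq on GRCm38.p6. Capitals mark the E2F core or its longer form, the CCAAT box, and the CHR element (TTTGAA or TTCGAA), each searched on both strands. The longer E2F form was TTTCCCGC, TTTCGCGC, TTTGCCGC or TTTGGCGC, and the core is the same letters without the first T.
Chek1, chr9:36726609-36726908, minus strand: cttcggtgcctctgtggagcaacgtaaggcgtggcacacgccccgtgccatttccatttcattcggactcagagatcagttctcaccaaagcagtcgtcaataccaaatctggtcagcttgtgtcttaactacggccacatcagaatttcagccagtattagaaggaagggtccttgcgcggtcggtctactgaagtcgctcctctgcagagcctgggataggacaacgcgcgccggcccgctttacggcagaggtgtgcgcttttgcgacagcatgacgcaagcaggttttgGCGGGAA
Rpa2, chr4:132768110-132768409, plus strand: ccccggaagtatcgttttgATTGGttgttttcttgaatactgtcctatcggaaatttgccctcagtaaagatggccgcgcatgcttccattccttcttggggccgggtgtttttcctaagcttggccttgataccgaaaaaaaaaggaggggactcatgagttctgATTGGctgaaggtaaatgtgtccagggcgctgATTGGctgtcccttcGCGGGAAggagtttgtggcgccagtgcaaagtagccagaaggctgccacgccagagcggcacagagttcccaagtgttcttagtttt
Brip1, chr11:86201144-86201443, minus strand: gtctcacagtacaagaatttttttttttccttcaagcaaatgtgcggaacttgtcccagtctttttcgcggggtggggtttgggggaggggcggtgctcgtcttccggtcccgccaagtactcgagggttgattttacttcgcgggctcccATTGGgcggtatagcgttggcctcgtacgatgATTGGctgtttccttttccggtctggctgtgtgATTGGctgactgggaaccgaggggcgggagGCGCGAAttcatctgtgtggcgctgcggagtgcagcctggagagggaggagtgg
Xrcc3, chr12:111813830-111814129, minus strand: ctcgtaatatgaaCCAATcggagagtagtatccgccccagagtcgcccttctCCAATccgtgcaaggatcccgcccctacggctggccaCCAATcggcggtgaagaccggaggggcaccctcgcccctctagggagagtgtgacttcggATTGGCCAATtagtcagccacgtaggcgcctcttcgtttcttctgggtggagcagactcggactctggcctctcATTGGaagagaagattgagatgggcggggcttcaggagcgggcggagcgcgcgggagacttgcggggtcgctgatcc
Bard1, chr1:71102923-71103222, minus strand: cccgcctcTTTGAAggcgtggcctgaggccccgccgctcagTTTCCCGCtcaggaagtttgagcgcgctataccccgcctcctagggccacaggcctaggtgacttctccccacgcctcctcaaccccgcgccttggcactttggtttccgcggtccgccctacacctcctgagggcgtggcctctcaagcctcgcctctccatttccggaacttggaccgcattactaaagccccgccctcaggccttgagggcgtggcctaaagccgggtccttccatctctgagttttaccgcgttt

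The Chek1 window held 1 E2F core and no CCAAT box, the Rpa2 and Brip1 windows each held 1 E2F core and 3 CCAAT boxes, and the Xrcc3 window held 6 CCAAT boxes. Bard1 had 1 E2F core and 1 CHR element and no CCAAT box. Windows were available for 26 of the 33 genes, and not for Exo1, Fancd2, H2ax, Nbn, Rad50, Rad51d and Tonsl. Of the genes without a window, Exo1, H2ax, Nbn and Tonsl were lower in KO at day 4, and the motif counts leave them out. The E2F core stood in 16 of the 26, against 9.69% of 27025 RefSeq promoter windows, and CCAAT in 17, against 37.9%. The 26 windows held 50.7% to 69.7% G and C bases. The shares over all windows were not matched for base composition, here and for the other motifs. The longer E2F form, which contains the core, stood in 4 of the 26, against 2.32%, and CHR in 3, against 19.4%. The core was added to the search after the longer form had been counted. Among the 13 genes with a window that were lower in KO at day 4, 9 held the E2F core and 9 a CCAAT box, and among the other 13 these counts were 7 and 8. The longer E2F form stood in 1 of the 13 lower genes and 3 of the other 13, and CHR in 2 and 1. A match in these letters is a description of the sequence and not a binding site.

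End sensing and resection was represented by Mre11a, Rad50 and Nbn, the subunits of the MRN complex that first holds broken ends, and by the exonuclease Exo1 and the RecQ helicase Blm, which extend the cut. Nbn, the subunit that brings ATM to breaks, read 6.66, 7.10 and 6.70 in WT at day 0, 6.15, 6.70 and 6.63 in WT at day 4, 6.54, 6.50 and 6.43 in KO at day 0 and 5.77, 5.66 and 6.01 in KO at day 4. Every KO day 4 array lay under every other array. Nbn fell in KO cells by 0.68 ± 0.15 (adjusted p = 0.00427), was -0.68 ± 0.15 (adjusted p = 0.00784) in KO against WT at day 4, and changed by -0.33 ± 0.15 (adjusted p = 0.16) in WT cells, which did not pass. Exo1 read 6.92, 6.87 and 6.97 in WT at day 0, 6.78, 6.85 and 7.14 in WT at day 4, 6.56, 6.69 and 6.57 in KO at day 0 and 6.20, 6.15 and 6.40 in KO at day 4. The WT arrays of both days overlapped, all KO day 0 arrays lay under them, and the KO day 4 arrays lay lower again. The day 4 difference was -0.67 ± 0.10 (adjusted p = 0.000706) and the KO change -0.36 ± 0.10 (adjusted p = 0.0158). The KO change of Exo1 did not pass without array 2 of KO at day 0 (adjusted p = 0.0634), array 1 of KO at day 4 (0.0527) or array 2 of KO at day 4 (0.0567). Blm was -0.31 ± 0.10 (adjusted p = 0.0456) in KO against WT at day 4. That call was lost without any 1 array other than array 2 of WT at day 0 or array 1 of WT at day 4 (adjusted p from 0.0568 to 0.179), and without WT day 4 array 3 the difference was -0.20 (adjusted p = 0.179). Mre11a and Rad50 differed between KO and WT at day 4 by 0.11 ± 0.10 and 0.05 ± 0.09, neither passing, so of the 3 MRN subunits Nbn was the one that passed.

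RPA, the complex that coats single-stranded DNA in replication and repair, has a large, a middle and a small subunit. Rpa2, the middle subunit, read 6.64, 6.63 and 6.83 in WT at day 0, 6.87, 6.83 and 7.01 in WT at day 4, 6.55, 6.74 and 6.49 in KO at day 0 and 6.20, 6.24 and 6.23 in KO at day 4. Its KO day 4 arrays lay under all others, and its WT arrays of day 0 and day 4 overlapped. Rpa2 fell in KO cells by 0.37 ± 0.09 (adjusted p = 0.00613) and was -0.68 ± 0.09 (adjusted p = 0.000311) in KO against WT at day 4. Its change in WT cells was 0.20 ± 0.09 (adjusted p = 0.134). The small subunit Rpa3 moved the other way and read 8.62, 8.41 and 8.50 in WT at day 0, 8.71, 8.88 and 8.89 in WT at day 4, 8.26, 8.74 and 8.53 in KO at day 0 and 9.11, 9.09 and 9.03 in KO at day 4. It rose in KO cells by 0.56 ± 0.11 (adjusted p = 0.00178), and its change in WT cells, 0.32 ± 0.11 (adjusted p = 0.0574), did not pass. In each genotype every day 4 array lay above every day 0 array of that genotype. The KO against WT difference of Rpa3 at day 4 was 0.25 ± 0.11 (adjusted p = 0.134). The difference of its changes between the genotypes was 0.24 ± 0.16 (adjusted p = 0.443), and neither passed. Rpa1, the large subunit, was -0.30 ± 0.09 (adjusted p = 0.0271) in KO against WT at day 4 and -0.31 ± 0.09 (adjusted p = 0.0161) in the KO change. The day 4 difference of Rpa1 did not pass without array 2 of WT at day 4 (adjusted p = 0.0911), array 3 of WT at day 4 (0.0978) or array 2 of KO at day 4 (0.094), and the KO change did not pass without array 2 of KO at day 0 (adjusted p = 0.0562) or array 2 of KO at day 4 (0.0626). A second, dimmer Rpa1 probe set with a mean level of 3.71 showed a day 4 difference of 0.09 and a KO change of -0.08, neither passing. The second Rpa3 probe set showed a KO change of 0.41 that did not pass (adjusted p = 0.15).

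**Figure D2:**
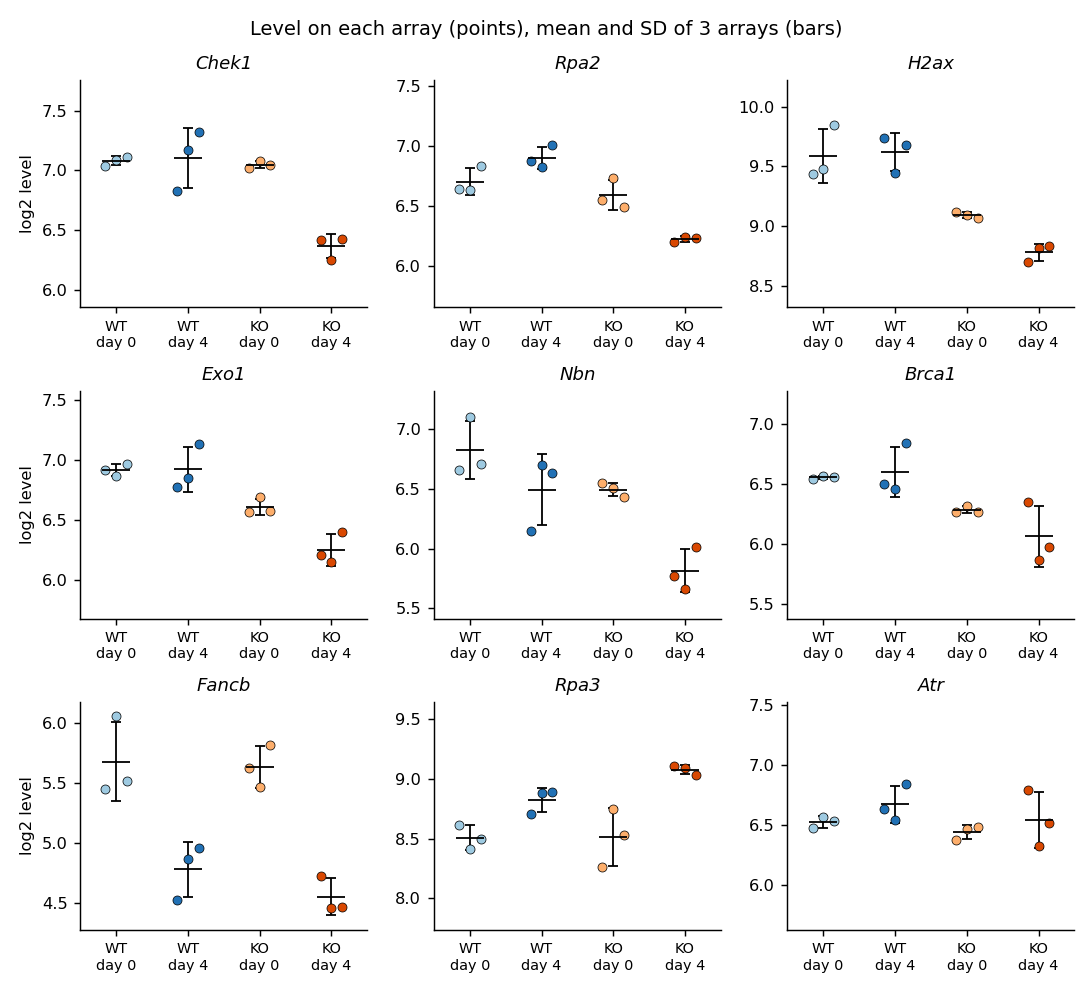
Log2 level (vertical axis) of 9 of the 33 genes by group (horizontal axis), with 1 point per array and bars for the mean and SD of the 3 arrays of a group. For Chek1 the KO day 4 arrays read 6.26 to 6.43 and the WT day 4 arrays 6.83 to 7.32.

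The BRCA group prepares the cut-back ends for strand invasion. Brca1, the ubiquitin ligase subunit that directs repair towards recombination, read 6.54, 6.57 and 6.56 in WT at day 0, 6.50, 6.46 and 6.84 in WT at day 4, 6.27, 6.32 and 6.27 in KO at day 0 and 6.35, 5.87 and 5.97 in KO at day 4. The KO day 4 arrays did not overlap the WT day 4 arrays. Brca1 was -0.54 ± 0.12 (adjusted p = 0.00853) in KO against WT at day 4, and its KO change of -0.22 ± 0.12 (adjusted p = 0.205) did not pass. The day 4 call of Brca1 was lost when the day 4 groups were fitted alone (adjusted p = 0.0707). At day 0 its KO arrays also lay under the WT arrays, at -0.27 ± 0.12 (adjusted p = 0.288), which did not pass. Bard1, the partner that stabilises BRCA1, was -0.43 ± 0.13 (adjusted p = 0.0361) at day 4, with overlapping arrays. Its call was lost without array 2 of WT at day 4 (adjusted p = 0.0867), array 3 of WT at day 4 (0.151), array 3 of KO at day 0 (0.0503), array 1 of KO at day 4 (0.0884) or array 2 of KO at day 4 (0.119). Brip1, the FANCJ helicase that binds BRCA1, fell by 0.33 ± 0.08 (adjusted p = 0.00679) in KO cells and was -0.25 ± 0.08 (adjusted p = 0.0444) in KO against WT at day 4. The second of these did not pass without any 1 array other than array 3 of KO at day 0 or array 1 of KO at day 4 (adjusted p from 0.0526 to 0.132). Palb2, which bridges BRCA1 to BRCA2, and Brca2 differed at day 4 by -0.11 ± 0.11 and -0.23 ± 0.10 and did not pass.

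Among the genes that act in strand invasion, Rad51ap1, which aids that step, read 6.27, 6.48 and 6.50 in WT at day 0, 6.08, 6.08 and 6.40 in WT at day 4, 5.99, 6.26 and 6.20 in KO at day 0 and 5.61, 5.75 and 5.76 in KO at day 4. The KO day 4 arrays were under the arrays of the other groups. Rad51ap1 fell in KO cells by 0.44 ± 0.11 (adjusted p = 0.00732) and was -0.48 ± 0.11 (adjusted p = 0.00821) in KO against WT at day 4. Rad54l, a translocase of the same step, was -0.42 ± 0.10 (adjusted p = 0.0128) at day 4 and -0.31 ± 0.10 (adjusted p = 0.0355) in the KO change. Without array 3 of WT at day 4 (adjusted p = 0.0602) or array 1 of KO at day 4 (0.0541) the first did not pass, and without array 1 of KO at day 0 (adjusted p = 0.0786), array 2 of KO at day 0 (0.115), array 3 of KO at day 0 (0.0566), array 1 of KO at day 4 (0.142) or array 2 of KO at day 4 (0.0616) the second did not. Xrcc3, Rad51c and Rad51d, which belong to a family of recombination mediators, passed in different comparisons. Xrcc3 read 6.93, 7.19 and 6.99 in WT at day 0, 6.57, 6.91 and 6.95 in WT at day 4, 6.61, 6.85 and 6.48 in KO at day 0 and 6.23, 6.33 and 6.48 in KO at day 4. Its KO arrays lay under the WT arrays of the same day, at both days. The difference was -0.47 ± 0.13 (adjusted p = 0.0203) at the later day, and -0.39 ± 0.13 (adjusted p = 0.107) was found at day 0. The day 4 call was lost without array 2 of WT at day 4 (adjusted p = 0.0741), array 3 of WT at day 4 (0.0859), array 1 of KO at day 4 (0.0729) or array 2 of KO at day 4 (0.0504). Rad51d rose in WT cells by 0.26 ± 0.08 (adjusted p = 0.0219) and Rad51c in KO cells by 0.37 ± 0.13 (adjusted p = 0.0398). The Rad51d call was lost without array 2 of WT at day 0 (adjusted p = 0.0918) or array 3 of WT at day 4 (0.0563). The Rad51c call was lost without array 1 of WT at day 0 (adjusted p = 0.0526), array 1 of KO at day 0 (0.0682), array 2 of KO at day 0 (0.0529), array 3 of KO at day 0 (0.15), array 1 of KO at day 4 (0.164) or array 3 of KO at day 4 (0.0542).

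**Figure D3:**
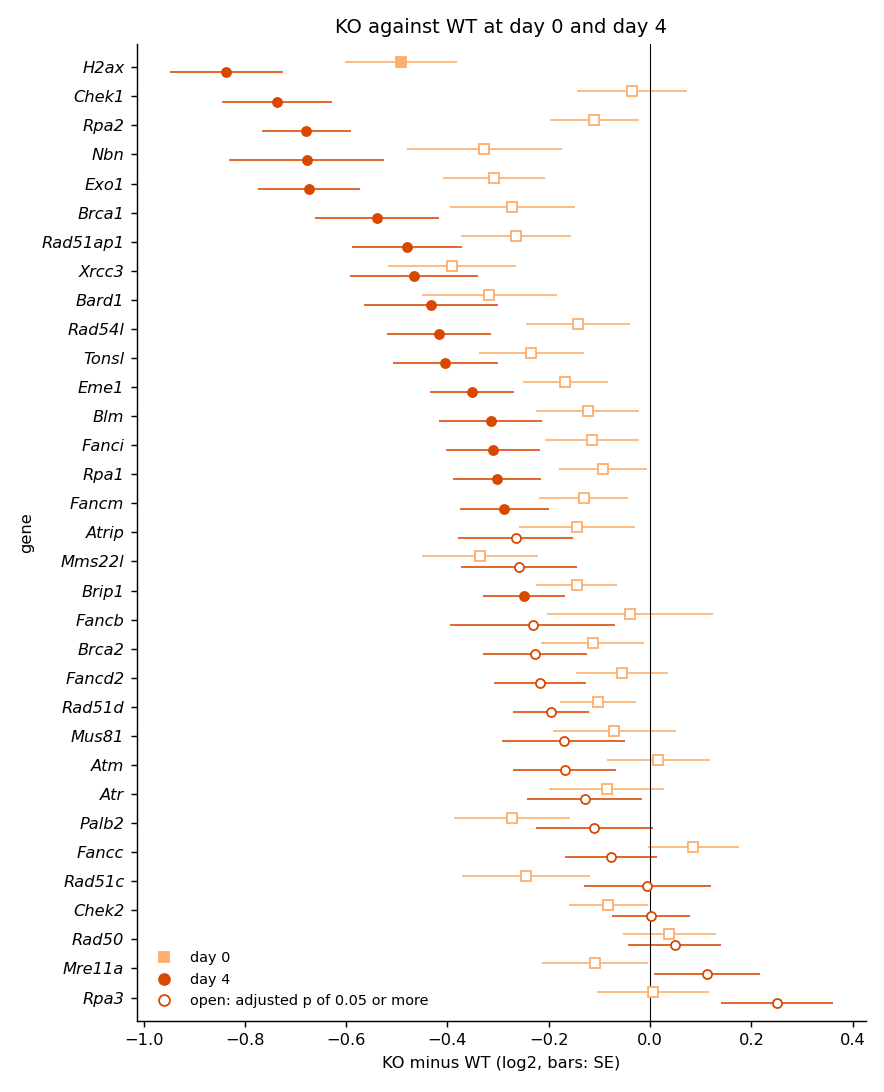
KO minus WT difference of each of the 33 genes on the log2 scale, at day 0 and at day 4, with bars of 1 standard error. Filled points passed the test, which were 1 gene at day 0 and 17 at day 4, all of them to the left of 0.

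The Fanconi genes act in the unhooking of crosslinked DNA, and the nuclease MUS81 with EME1 cuts joined DNA intermediates. Fancb, a subunit of the core complex that marks crosslinks, read 5.46, 6.06 and 5.52 in WT at day 0, 4.53, 4.87 and 4.96 in WT at day 4, 5.63, 5.47 and 5.82 in KO at day 0 and 4.73, 4.46 and 4.47 in KO at day 4. Day 4 arrays were below day 0 arrays in both genotypes without overlap. Fancb fell by 0.89 ± 0.16 (adjusted p = 0.00142) in WT cells and fell by 1.09 ± 0.16 (adjusted p = 0.000249) in KO cells, the largest fall of the 33 genes in each. The KO against WT difference of Fancb at day 4, -0.23 ± 0.16 (adjusted p = 0.356), did not pass. Fanci, which forms the ID2 clamp with FANCD2, fell by 0.45 ± 0.09 (adjusted p = 0.0024) in KO cells and was -0.31 ± 0.09 (adjusted p = 0.0327) in KO against WT at day 4. The day 4 call of Fanci was lost without array 2 of WT at day 4 (adjusted p = 0.0878), array 3 of WT at day 4 (0.136), array 2 of KO at day 4 (0.105) or array 3 of KO at day 4 (0.058). Fancd2 was -0.22 ± 0.09 (adjusted p = 0.113) at day 4, which did not pass. Fancm, the translocase that anchors the core complex, was -0.29 ± 0.09 (adjusted p = 0.035) at day 4, and not past the test without array 2 of WT at day 4 (adjusted p = 0.0704), array 3 of WT at day 4 (0.116) or array 2 of KO at day 4 (0.12). Fancc, another core subunit, fell in KO cells by 0.29 ± 0.09 (adjusted p = 0.0267), a call lost without array 2 of KO at day 0 (adjusted p = 0.054), array 3 of KO at day 0 (0.101), array 1 of KO at day 4 (0.113) or array 2 of KO at day 4 (0.0593).

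Eme1 read 5.64, 5.58 and 5.67 in WT at day 0, 5.16, 5.33 and 5.29 in WT at day 4, 5.44, 5.57 and 5.38 in KO at day 0 and 4.80, 5.01 and 4.92 in KO at day 4. Day 4 lay below day 0 in each genotype, and the KO arrays below the WT arrays of the same day. Eme1 fell by 0.37 ± 0.08 (adjusted p = 0.00575) in WT cells and fell by 0.55 ± 0.08 (adjusted p = 0.000252) in KO cells, and the day 4 difference was -0.35 ± 0.08 (adjusted p = 0.0101). The day 4 call of Eme1 was lost when the day 4 groups were fitted alone (adjusted p = 0.0636). Its partner Mus81 fell by 0.44 ± 0.12 (adjusted p = 0.0188) in WT cells and fell by 0.54 ± 0.12 (adjusted p = 0.00428) in KO cells, while its day 4 difference of -0.17 ± 0.12 (adjusted p = 0.36) did not pass. The WT fall of Mus81 did not pass without array 2 of WT at day 0 (adjusted p = 0.07), array 3 of WT at day 0 (0.066) or array 1 of WT at day 4 (0.0661).

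Of the checkpoint kinases and their partner, Chek1 was the gene that passed. Chek1, the kinase that ATR activates to restrain replication and mitotic entry, read 7.04, 7.09 and 7.12 in WT at day 0, 6.83, 7.17 and 7.32 in WT at day 4, 7.02, 7.08 and 7.05 in KO at day 0 and 6.42, 6.26 and 6.43 in KO at day 4. At day 0 the genotypes overlapped, at day 4 the WT arrays stayed around the day 0 range, and the KO arrays were lower than every other array. Chek1 fell by 0.68 ± 0.11 (adjusted p = 0.00039) in KO cells and was -0.74 ± 0.11 (adjusted p = 0.000616) in KO against WT at day 4, whereas its WT change was 0.02 ± 0.11 (adjusted p = 0.92). Chek2, the effector of ATM, differed by 0.00 ± 0.08 at day 4. Atm, Atr and Atrip, the partner of ATR, differed by -0.17 ± 0.10, -0.13 ± 0.11 and -0.27 ± 0.11, and none of these passed. A second, dimmer Atr probe set showed KO against WT differences of 0.10 at day 4 and 0.27 at day 0, neither passing. The change over 4 days in KO cells less that in WT cells was -0.70 ± 0.15 (adjusted p = 0.0255) for Chek1 and -0.57 ± 0.12 (adjusted p = 0.0258) for Rpa2. These calls were near the threshold. That of Chek1 was lost without array 1 of WT at day 0 (adjusted p = 0.0696), array 2 of WT at day 0 (0.0584), array 3 of WT at day 0 (0.0537), array 1 of KO at day 0 (0.0582), array 2 of KO at day 0 (0.0665) or array 3 of KO at day 0 (0.0631), and that of Rpa2 without array 1 of WT at day 0 (adjusted p = 0.0741), array 2 of WT at day 0 (0.0663), array 3 of WT at day 4 (0.0607), array 1 of KO at day 0 (0.0553), array 2 of KO at day 0 (0.067), array 1 of KO at day 4 (0.0574) or array 3 of KO at day 4 (0.0512).

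**Figure D4:**
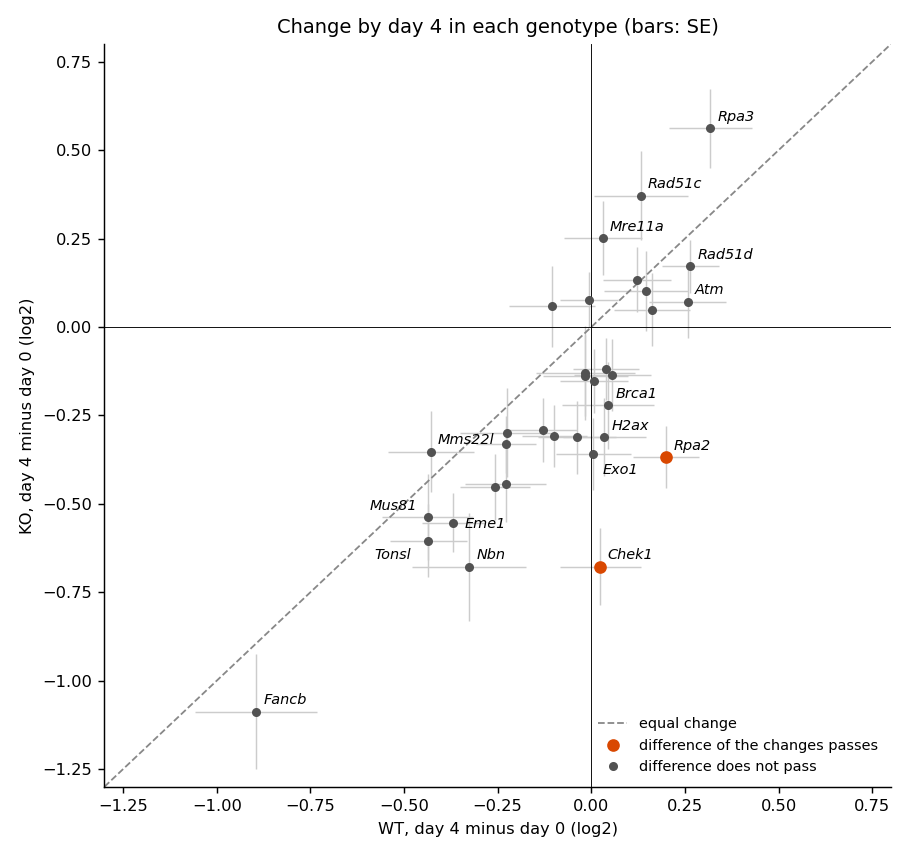
Change from day 0 to day 4 on the log2 scale for each of the 33 genes, WT cells on the horizontal axis and KO cells on the vertical axis, with bars of 1 standard error and the dashed line at equal changes. Chek1 lies at 0.02 and -0.68 and Rpa2 at 0.20 and -0.37, below the line of equal changes, while Fancb is low in both genotypes.

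H2ax, the histone variant phosphorylated around breaks, read 9.44, 9.48 and 9.85 in WT at day 0, 9.74, 9.44 and 9.68 in WT at day 4, 9.12, 9.10 and 9.07 in KO at day 0 and 8.70, 8.82 and 8.83 in KO at day 4. KO arrays lay below WT arrays at both days without overlap. The later difference was -0.84 ± 0.11 (adjusted p = 0.00036), a 1.79-fold lower level in KO, and at day 0 it was -0.49 ± 0.11 (adjusted p = 0.0191). The day 0 call was lost without array 3 of WT at day 0 (adjusted p = 0.0744), array 1 of KO at day 0 (0.0604), array 2 of KO at day 0 (0.0684) or array 3 of KO at day 0 (0.076). Tonsl, a replication fork protein that works with MMS22L at stalled forks, read 6.62, 6.71 and 6.58 in WT at day 0, 6.08, 6.16 and 6.35 in WT at day 4, 6.48, 6.37 and 6.35 in KO at day 0 and 5.59, 5.81 and 5.98 in KO at day 4. It dropped between days in both genotypes, and KO day 4 arrays lay under all others. Tonsl fell by 0.43 ± 0.10 (adjusted p = 0.00793) in WT cells, fell by 0.60 ± 0.10 (adjusted p = 0.00065) in KO cells, and was -0.40 ± 0.10 (adjusted p = 0.0154) in KO against WT at day 4. That last call was lost without array 3 of WT at day 4 (adjusted p = 0.0707) or array 1 of KO at day 4 (0.0608). Mms22l fell by 0.43 ± 0.11 (adjusted p = 0.0155) in WT cells and fell by 0.35 ± 0.11 (adjusted p = 0.0331) in KO cells, with a day 4 difference of -0.26 ± 0.11 (adjusted p = 0.135) that did not pass. The WT fall of Mms22l was lost without array 3 of WT at day 0 (adjusted p = 0.0641) or array 1 of WT at day 4 (0.0532), and the KO fall without array 2 of KO at day 0 (adjusted p = 0.0833), array 3 of KO at day 0 (0.105), array 2 of KO at day 4 (0.12) or array 3 of KO at day 4 (0.0742).

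Genes of cycling cells were counted beside the repair genes, array by array. The mean level of the 33 genes, each gene centred over the 12 arrays, was 0.11, 0.16 and 0.18 in WT at day 0, -0.05, 0.07 and 0.21 in WT at day 4, -0.03, 0.03 and -0.02 in KO at day 0 and -0.17, -0.29 and -0.20 in KO at day 4. The spread over arrays was widest in WT at day 4. A list of 29 S-phase genes had -0.04, 0.08 and 0.25 on the WT day 4 arrays and -0.36, -0.43 and -0.33 on the KO day 4 arrays. Of these S-phase genes 22 were lower in KO at day 4, as were 21 of 33 genes of G2 and mitosis, against 12.4% of all genes. The median day 4 differences of these 2 lists were -0.51 and -0.44, beside -0.27 for the 33 repair and checkpoint genes. At day 0 1 S-phase gene and 2 genes of G2 and mitosis were lower, against 3.12% of all genes. At an unadjusted p under 0.05 in limma these counts were 9 and 15, against 9.15% of all genes. The median day 0 differences of the 2 lists were -0.17 and -0.19, beside -0.12 for the 33 repair and checkpoint genes. Negative day 0 differences were seen for 27 of 29 S-phase genes and 32 of 33 genes of G2 and mitosis. In KO cells 20 S-phase genes and 23 genes of G2 and mitosis fell between the days, and 0 of either list rose. In WT cells 10 and 19 fell, and 1 of each list rose. Over all genes 16.9% fell and 13.8% rose in KO cells, and 11.7% fell and 11.1% rose in WT cells. Mki67, a marker of cycling cells, was -0.53 ± 0.09 (adjusted p = 0.00197) in KO against WT at day 4. The part of cell cycle distribution in the differences of the repair genes was not tested. A list of 18 interferon genes stood at -1.61, -1.58 and -1.57 on the WT day 0 arrays and at 0.94, -0.44 and -1.05 on the WT day 4 arrays. On the KO arrays this list stood at 0.95, 0.91 and 0.89 at day 0 and at 0.50, 1.36 and 0.68 at day 4. The part of the interferon genes was not tested either.

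**Figure D5:**
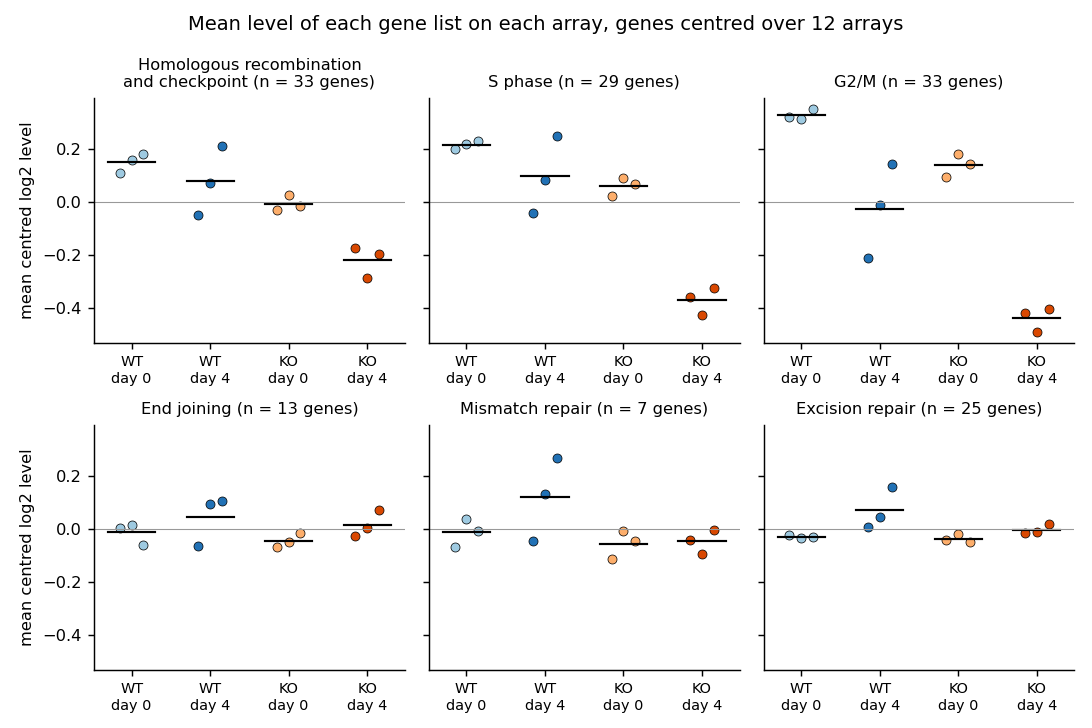
Mean level of the 33 genes and of other gene lists on each array, each gene centred over the 12 arrays (log2 scale), with 1 point per array and a line at the group mean. On the KO day 4 arrays the 33 genes lie between -0.29 and -0.17 and the S-phase list between -0.43 and -0.33.

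Other genes of the pathway gave a mixed picture. Of 37 further recombination genes 10 were lower and 2 higher in KO at day 4, with a median difference of -0.17. Over all genes 12.4% were lower and 8.34% higher at day 4, which also stands beside the counts that follow. Dna2, a nuclease of long-range resection, was at -1.16 ± 0.11 (adjusted p = 3.89e-05), a larger difference than for any of the 33 genes. Hrob and Psmc3ip, accessory factors of recombination, were at -0.59 and -0.70, while Sfr1, another accessory factor, was higher at 0.61. In the difference of the day 4 changes 3 of these 37 passed, Dna2 at -0.87, Hrob at -0.51 and Rfwd3 at -0.44. Over all genes 1.81% passed as lower in that comparison. Of 18 further Fanconi genes 5 were lower and 1, Fancg at 0.78, was higher at day 4, and of 25 further checkpoint genes 12 were lower and 2 higher, with Cdc25c at -0.77 and Plk1 at -0.79. Cdc25c and Plk1 are also in the list of G2 and mitosis, so the counts of these lists are not separate. Other repair routes were counted beside these. Of 13 genes of non-homologous end joining 1 was lower and 2 higher, with a median of 0.00. Of 25 excision repair genes 3 were lower, near the 12.4% of all genes. Of 7 mismatch repair genes 2 were lower, Lig1 at -0.69 and Pcna at -0.55, both of which also act in replication. No test compared one list with another.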

How the data were processed

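Total RNA was measured on 12 Affymetrix arrays in 4 groups of 3. The values are log2 probe-set levels deposited by the authors, from 1.33 to 13.35, and were taken as log2 from that scale. Affymetrix Expression Console is named per the submitters' processing notes; how background was corrected, how arrays were normalized and which version ran is not given in the sources used here. Arrays carry no counts, and their number limits the precision.

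Of 41345 probe sets, 23521 had 1 gene symbol in the platform annotation, 1814 more than 1 and 16010 no symbol. Each gene took its single-symbol probe set with the highest 12-array mean, giving 22180 genes, and 1082 genes had more than 1 probe set. The table held 0 columns of other samples.

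One linear model with 4 group means was fitted to all genes with limma 3.58.1 in R 4.3.3, with 8 residual degrees of freedom and 4.56 from the empirical Bayes prior. Tests were two-sided, adjusted by Benjamini-Hochberg over all genes, and passed under 0.05. Errors of changes are standard errors with n = 3 arrays per group. The fit was tested on simulated data. The main fit used no pairing by replicate number, as no label names a shared origin. Same-number correlations of deviations from group means were -0.06 to 0.18. The 2 over 0.1 lay between WT and KO at day 4, where an unlike-number pair reached -0.20. With 3 arrays per group these values cannot decide whether the numbers pair the arrays. Alternatives were the low-level filter, quantile normalization, median centring, probe-set choices, the prior, array weights, the groups fitted alone, a replicate block, a 1.5-fold minimum, and leaving out arrays.

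The genes and the lists were chosen with earlier results of these data known. All 33 measured genes could be named; of each other list, up to 4 genes with the smallest p, or all that passed where 5 or fewer did. Other lists covered recombination, Fanconi, checkpoint, end joining, mismatch and excision repair, S phase, G2 and mitosis, p53 targets, E2F and Rb genes, interferon genes, and markers of fibroblasts, macrophages, keratinocytes, endothelium, neurons and red blood cells. Promoter windows came from RefSeq.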

Additional observations from a re-analysis of the deposited data

Results flagged for a closer look

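The gap between the KO and the WT change over 4 days passed its own test for 2 of the 33 genes. In the same test 6 of 29 S-phase genes and 3 of 33 genes of G2 and mitosis were lower and 0 higher. Over all genes 1.81% were lower and 2.15% higher. The median gap was -0.27 for the S-phase list and -0.20 for the list of G2 and mitosis, beside -0.16 for the 33 repair and checkpoint genes. Chek1 changed by -0.68 in KO cells and 0.02 in WT cells, a difference of -0.70 (limma, adjusted p = 0.0255). Rpa2 changed by -0.37 in KO cells and 0.20 in WT cells, a difference of -0.57 (limma, adjusted p = 0.0258). For both genes all 3 KO arrays were lower at day 4 than at day 0, and the WT arrays of the 2 days overlapped.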

How the results depend on the processing

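The 43 calls of the 33 genes, over 5 comparisons, were recomputed under 23 alternatives, and 0 changed direction. Of the 43, 10 were ended by no alternative, 20 by none but the 1.5-fold minimum, and 22 by no omission of 1 array; 17 further calls appeared under some alternative. Leaving out 1 array at a time gave 3 to 7 lower genes (5 with all arrays) and 0 to 3 higher (1) in WT cells between the days, 10 to 17 lower (15) and 1 to 4 higher (2) in KO cells, 0 to 2 lower (1) between genotypes at day 0, 8 to 18 lower (17) at day 4, and 0 to 2 lower (2) in the difference of changes. A minimum of 1.5-fold left 1 lower and 0 higher gene in WT cells, 4 and 0 in KO cells, 0 lower at day 0, 5 lower at day 4 and 1 lower in the difference of changes. Higher genes in WT cells numbered 2 with quantile normalization, array weights, a trended robust prior or the low-level filter at the 25th percentile, 0 with median centring and 3 without both array 1 of WT at day 4 and array 2 of KO at day 4. Higher genes in KO cells numbered 1 with median centring, with all probe sets tested or with the replicate block, and 4 without those 2 arrays. Lower genes at day 0 numbered 4 with array weights or the compared groups fitted alone and 3 without those 2 arrays. Lower genes at day 4 numbered 6 with the compared groups alone. With all probe sets tested, 0 genes passed in the difference of changes (adjusted p = 0.0611 for Chek1 and 0.0602 for Rpa2). The cause of these shifts was not tested. With replicate number as a block, 15 genes were lower in KO at day 4 and 15 fell in KO cells; the numbers share no stated origin. Averaging the probe sets of a gene ended both Rpa1 calls, at -0.19 (adjusted p = 0.108) in the KO change and -0.11 (adjusted p = 0.423) at day 4. None of the 33 genes had a mean under the 25th percentile, and the precision is limited by 3 arrays per group.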

Other observations

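E2F and Rb genes, which control the cell cycle, and p53 targets were counted beside the repair genes. Of 18 E2F and Rb genes 9 were lower and 2 higher in KO at day 4, against 12.4% lower and 8.34% higher over all genes. E2f8, a repressor of E2F targets, was at -0.77, Mybl2, a transcription factor of the G2 and M programme, at -0.62, and E2f4 at -0.42, whereas E2f6, a repressor, was at 0.44. Of 20 p53 targets 5 were higher and 1 lower in KO at day 4, beside the same shares of all genes. Perp was at 0.71, Pmaip1 at 0.40, Trp53inp1 at 0.28 and Sesn2 at -0.58. Perp, an apoptosis effector, was at -0.99 in KO against WT at day 0, and its day 4 changes differed between the genotypes by 1.70 ± 0.21 (limma, adjusted p = 0.00132). Cdkn1a, the p53-induced cell cycle inhibitor, passed in none of the 5 comparisons.

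Of 18 interferon genes 15 were higher in KO at day 0 and 8 at day 4, and 12 rose in WT cells between the days. Over all genes these shares were 2.48%, 8.34% and 11.1%. Of 20 fibroblast markers 12 fell and 3 rose in WT cells and 10 fell and 3 rose in KO cells. Over all genes 11.7% fell and 11.1% rose in WT cells, and 16.9% fell and 13.8% rose in KO cells. Of 10 endothelial markers 1 was lower in KO at day 0 and 1 higher at day 4, and of 6 neural markers 1 was lower at each day. Over all genes 3.12% were lower in KO at day 0, and 12.4% were lower and 8.34% higher at day 4. The 1 measured marker of red blood cells passed in no comparison.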
